A study of Mus musculus with 14 samples.

Results

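The fibroblast identity genes are 10 mouse genes that are widely used to recognise embryo fibroblasts and other mesenchymal cells. They are Twist1, Twist2, Prrx1, Prrx2, Pdgfra, Pdgfrb, Thy1, Fn1, Vim and S100a4, and they were taken by name, as 10 of 21938 protein-coding genes on the assembled chromosomes. For each gene, the sites of the deposited list of H3K27me3 sites were collected that overlapped the window of 1 kb on either side of any annotated transcription start or the gene body, from the first to the last annotated base. The distance from the nearest start to the nearest site was measured as well. The list holds 153983 sites, each with a chromosome, a start and an end only.

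H3K27me3 ChIP-seq, the sequencing of chromatin precipitated with an antibody against trimethylated lysine 27 of histone H3, was performed in immortalised mouse embryo fibroblasts (iMEF), of the single clone NG3. In these cells, controls included, exon 4 of the endogenous Ash2l gene was deleted with an inducible Cre recombinase, and the cells lived on FKBP-HA2-ASH2L, a degradable fusion of human ASH2L. There were 12 H3K27me3 libraries in 6 groups of 2, a control without dTAG-13 and cells exposed to the degrader dTAG-13 for 30 min, 2 h, 4 h, 8 h or 16 h, plus 2 input libraries, of the control and of the 16 h exposure. The sites were joined over all samples into 1 list that carries no value, call or depth for a library, so that no gene could be compared between treated and control cells, no spread over samples can be given, and a gene without a site is not shown to lack the mark. The files used here hold no expression values, so that the identity of the cells was not checked by the mRNA of these genes.

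H3K27me3 is laid down by the Polycomb repressive complex PRC2 and marks genes that are kept silent, often developmental regulators with CpG-rich promoters, where it typically forms wide domains. ASH2L is a core subunit of the COMPASS methyltransferases, which methylate lysine 4 of histone H3, a mark of promoters in use. Fibroblasts are commonly recognised by mesenchymal transcription factors (Twist1, Twist2, Prrx1, Prrx2), by receptors for platelet-derived growth factor (Pdgfra, Pdgfrb), by a surface protein (Thy1) and by proteins of the matrix and the cytoplasm (Fn1, Vim, S100a4).

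Sites at these genes were narrow. A site lay within 1 kb of a start of 4 of the 10 genes, namely Prrx1, Prrx2, Pdgfra and Vim, which is 40% (exact 95% interval 12.2 to 73.8%), while 31.5% of all protein-coding genes had one. With sites of at least 500 bp only, Prrx1 alone remained, 1 of 10 against 24.2% of all genes. With sites of at least 1 kb the count was 0 of 10, with an exact upper bound of 30.8%, against 20.1% of all genes. The gene body overlapped a site in 5 of 10 genes, the same 4 and Fn1, against 46.7% of all genes. The body counts fell to 1 of 10 against 29.6% for sites of at least 500 bp and to 0 of 10 against 23.2% for sites of at least 1 kb. The number of genes with a site of any width was thus close to that of all genes, and the intervals of all these shares, which cover the counting of 10 genes only, included the share of all genes.

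**Figure D1:**
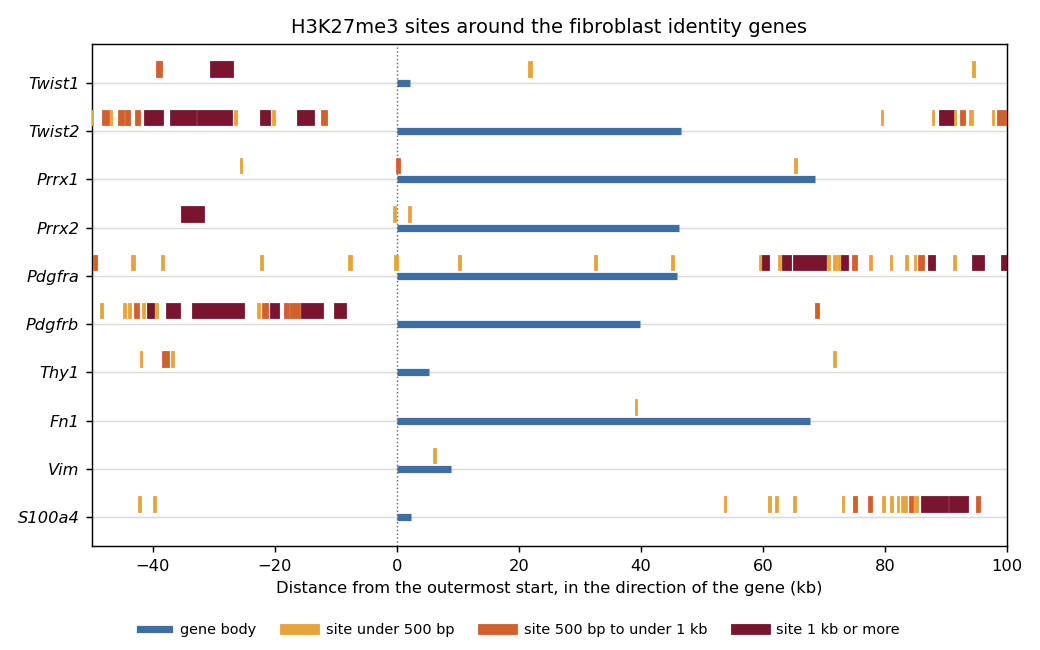
Map of the 10 genes from 50 kb before to 100 kb after the outermost annotated start, in the direction of transcription, in kb. Blue bars are gene bodies and the boxes above them are H3K27me3 sites coloured by width, with narrow ones drawn slightly enlarged by their outline. Sites of 1 kb or more lie outside all 10 gene bodies.

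Among the transcription factors, Twist1 and Twist2, basic helix-loop-helix (bHLH) proteins of the mesoderm, had no site at a start or in the body. Twist1 (ENSMUSG00000035799, chromosome 12, 33957671 to 33959829, plus strand, GRCm38) lay 21714 bp from its nearest site, which was 435 bp wide, and 73.5% of all genes had a nearer site. Its nearest site of at least 1 kb lay 26940 bp upstream and measured 3542 bp. That site covered the whole of Ferd3l, another bHLH gene. Twist2 (ENSMUSG00000007805, chromosome 1, 91801461 to 91848028, plus strand) lay 11532 bp downstream of its nearest site, of 716 bp. Sites covered 42.5% of the 100 kb upstream of Twist2, with 22 sites, and 8.69% of the 100 kb downstream, with 13 sites, while the 46568 bp of its body were free of them.

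Both Twist genes have CpG-rich promoters. To show this, the 250 bases before the RefSeq start are printed 5′ to 3′ in GRCm38.p6, with each CG in capitals, for Twist1 (chr12:33957421-33957670) and Twist2 (chr1:91801211-91801460), both on the plus strand.
Twist1: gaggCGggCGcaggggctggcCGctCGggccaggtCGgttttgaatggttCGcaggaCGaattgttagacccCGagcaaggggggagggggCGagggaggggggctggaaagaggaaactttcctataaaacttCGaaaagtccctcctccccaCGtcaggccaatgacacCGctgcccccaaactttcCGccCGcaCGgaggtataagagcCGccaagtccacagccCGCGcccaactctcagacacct
Twist2: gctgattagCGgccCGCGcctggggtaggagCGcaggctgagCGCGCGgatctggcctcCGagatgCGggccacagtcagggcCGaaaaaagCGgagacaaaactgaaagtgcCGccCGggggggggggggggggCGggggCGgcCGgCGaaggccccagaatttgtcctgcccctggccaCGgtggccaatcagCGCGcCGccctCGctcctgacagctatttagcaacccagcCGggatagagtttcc
The Twist1 stretch holds 18 CG and the Twist2 stretch holds 23, while the median over 32851 RefSeq promoters was 6 (quartiles 2 and 16) and 92.1% of them held at least 1. CG reads the same on both strands. A promoter sequence was at hand for 7 of the 10 genes, all but Pdgfrb, Thy1 and Fn1.

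Prrx1 and Prrx2, paired-related homeobox factors of limb and craniofacial mesenchyme, each had 2 sites. Prrx1 (ENSMUSG00000026586, chromosome 1, 163245119 to 163313710, minus strand) carried the widest site of all 10 genes, 534 bp at chr1:163313178-163313711. It began 1 bp before the outermost start and reached 532 bp into the gene, covered 4 of the 5 annotated starts, and lay with 533 bp in the first exon, outside the coding sequence. A second site of 301 bp, chr1:163248195-163248495, lay 65215 to 65515 bp into the gene at a terminal exon and held 136 coding bp. Outside its body Prrx1 stood nearly alone, with 0.205% of the 100 kb on both sides covered, and the nearest site of at least 1 kb lay 214399 bp downstream of the body.

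Prrx2 (ENSMUSG00000039476, chromosome 2, 30834972 to 30881251, plus strand) had 2 sites of 200 bp each, the smallest width in the list. The first lay from -410 to -211 bp relative to the start of Prrx2-202, 1 of its 4 starts, whereas the start of the other protein-coding transcript, Prrx2-201, was 7827 bp from the nearest site. The second lay 2061 to 2260 bp after the outermost start, in an intron. Their sequences are shown because both hold long runs of simple sequence and little CG. They are given on the plus strand of GRCm38 with CG in capitals, the upstream site at chr2:30834562-30834761 and the intronic site at chr2:30837033-30837232.
Prrx2 upstream: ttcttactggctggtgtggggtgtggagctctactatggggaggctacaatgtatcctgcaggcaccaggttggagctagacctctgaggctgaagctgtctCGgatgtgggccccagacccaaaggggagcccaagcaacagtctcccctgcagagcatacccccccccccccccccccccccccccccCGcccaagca
Prrx2 intronic: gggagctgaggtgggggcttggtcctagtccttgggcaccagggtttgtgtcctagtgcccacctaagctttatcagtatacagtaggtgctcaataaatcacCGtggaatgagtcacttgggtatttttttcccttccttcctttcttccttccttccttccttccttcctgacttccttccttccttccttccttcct
The upstream site holds an unbroken run of 30 C, and the intronic site one of 47 bases made only of C and T. CG occurs 2 times in the first and 1 time in the second. Whether reads can be placed uniquely at these runs was not tested, as no reads were used. The nearest site of at least 1 kb was 31694 bp upstream of Prrx2 and 3595 bp wide.

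Of the growth factor receptors, Pdgfra (ENSMUSG00000029231, chromosome 5, 75152292 to 75198215, plus strand) had the most sites of the 10 genes, 4 in the body. The first, of 437 bp, ran from -293 to 143 bp relative to the outermost start and covered 3 of the 9 annotated starts. The second, of 329 bp at chr5:75162477-75162805, lay 643 bp from the start of the protein-coding transcript Pdgfra-203. The third, of 366 bp at chr5:75184783-75185148, was intronic, and the fourth, of 369 bp at chr5:75197392-75197760, lay wholly in the last exon, outside the coding sequence. Together they covered 2.63% of the body. The promoter of Pdgfra is printed because a site covers it (chr5:75152001-75152250, plus strand, the 250 bases before the RefSeq start, CG in capitals).
Pdgfra: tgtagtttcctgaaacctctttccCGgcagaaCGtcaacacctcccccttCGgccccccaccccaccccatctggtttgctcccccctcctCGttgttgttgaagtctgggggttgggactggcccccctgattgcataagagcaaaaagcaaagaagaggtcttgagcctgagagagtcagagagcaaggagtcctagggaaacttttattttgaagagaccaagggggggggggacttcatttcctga
It holds 4 CG, fewer than the median of 6 over all RefSeq promoters and fewer than either Twist promoter above.

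The surroundings of Pdgfra were denser in sites than those of any other of the 10 genes. Sites covered 35.0% of the 100 kb upstream and 35.4% of the 100 kb downstream, and the mean over both sides was higher than in 92.4% of all protein-coding genes. The neighbour upstream, Gsx2, a homeobox gene of the developing brain, lay wholly under a site of 22734 bp. The neighbour downstream, Kit, the receptor for stem cell factor, lay 376701 bp away, beyond the 100 kb counted here. It had 24 sites in its body, the widest of 11459 bp. The nearest site of at least 1 kb began 14052 bp past the end of Pdgfra.

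Pdgfrb, the paralogous receptor that is known from pericytes and other mural cells, had no site at a start or in its body, against 4 in Pdgfra. It (ENSMUSG00000024620, chromosome 18, 61045150 to 61085061, plus strand) lay 8371 bp downstream of its nearest site, which was 1703 bp wide and overlapped Cdx1, a homeobox gene of the gut that is its upstream neighbour. Sites covered 58.0% of the Cdx1 body. The 100 kb on either side of Pdgfrb differed widely, with 24.2% covered by 21 sites upstream and 0.532% by 1 site downstream. The downstream neighbour Csf1r, the receptor for colony stimulating factor, had 1 site of 532 bp in its body and none at a start.

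Thy1 (ENSMUSG00000032011, chromosome 9, 44043384 to 44048579, plus strand), which encodes the surface glycoprotein CD90, had no site. Its nearest site lay 36535 bp upstream and was 395 bp wide, and 82.3% of all genes had a nearer one. The nearest site of at least 1 kb was 71662 bp away. Sites covered 11.9% of the 100 kb upstream and 0.369% of the 100 kb downstream.

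Fn1, Vim and S100a4 encode proteins of the matrix and the cytoplasm, and the sites of Fn1 and Vim lay over coding exons. Fn1 (ENSMUSG00000026193, chromosome 1, 71585520 to 71653200, minus strand) encodes fibronectin. Its only site, 246 bp at chr1:71613792-71614037, lay at least 39124 bp from the starts of the 10 transcripts at the head of the gene and 4225 bp from its nearest start, that of the retained-intron transcript Fn1-202. It shared 244 bp with an exon of 273 bp, exon 25 of Fn1-201, and its edges were 29 bp and 2 bp away from those of the exon. Of the 8 annotated transcripts that span this place, 1 includes the exon, which encodes the alternatively spliced extra domain B of fibronectin. Vim (ENSMUSG00000026728, chromosome 2, 13573927 to 13582826, plus strand) encodes the intermediate filament protein vimentin. Its only site, 363 bp wide, shared 219 bp with a coding exon and ended 144 bp past it.

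The sequence of the Fn1 site is printed from the minus strand of GRCm38 because the fit of the site to an exon can be read from it, the coding exon being in capitals.
Fn1: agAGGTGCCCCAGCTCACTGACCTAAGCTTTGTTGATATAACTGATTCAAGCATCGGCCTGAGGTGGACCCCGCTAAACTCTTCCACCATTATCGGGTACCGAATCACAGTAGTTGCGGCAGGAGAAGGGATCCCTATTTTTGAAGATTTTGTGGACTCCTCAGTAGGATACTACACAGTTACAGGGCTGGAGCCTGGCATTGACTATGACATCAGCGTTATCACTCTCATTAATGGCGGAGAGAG
The Fn1 site begins with the last bases of the intron, ag, and then stays in the exon to its end. It holds 7 CG.

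The call of Vim as a gene with a site at a start rested on 1 transcript. Its site lay 651 bp from the start of Vim-203, a retained-intron transcript, and 5739 to 6093 bp from the starts of the 3 protein-coding transcripts. With protein-coding starts only, or with the outermost start only, 3 of the 10 genes had a site at a start, against 28.9% and 25.3% of all genes. In both settings the median distance of the 10 genes to the nearest site was 9952 bp. Vim was also the most isolated of the 10 genes, with no site in the 100 kb on either side of its body and a gap of 209892 bp from its site to the next. S100a4 (ENSMUSG00000001020, chromosome 3, 90603771 to 90606045, plus strand), a calcium-binding protein also known as fibroblast-specific protein, had no site, and lay farther from one than any other of the 10 genes, at 39574 bp. Sites covered 0.970% of the 100 kb upstream and 12.8% of the 100 kb downstream, where a site of 4225 bp overlapped S100a9, a gene of neutrophils, 83799 bp away.

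**Figure D2:**
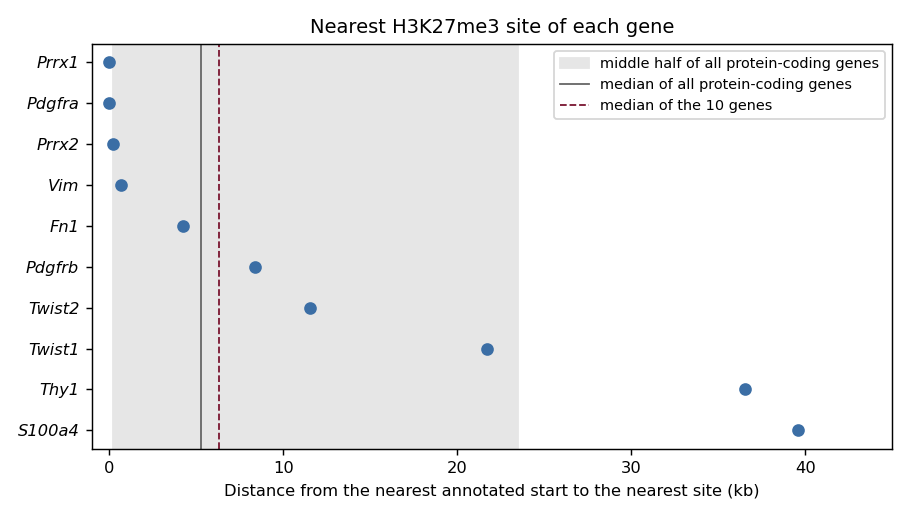
Distance in kb from the nearest annotated start of each of the 10 genes to the nearest H3K27me3 site (points), with the median of all protein-coding genes (grey line), their quartiles (grey band) and the median of the 10 genes (dashed line). The 10 genes span 0 to 39574 bp and lie on both sides of the median of all genes, with Thy1 and S100a4 beyond the upper quartile.

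The 10 genes lay on both sides of the median distance of all genes, and 16.6% of all genes lay farther from a site than the farthest of them. Prrx1 and Pdgfra had a site over a start, Prrx2 lay at 211 bp, Vim at 651 bp and Fn1 at 4225 bp. The other 5 followed at 8371 bp (Pdgfrb), 11532 bp (Twist2), 21714 bp (Twist1), 36535 bp (Thy1) and 39574 bp (S100a4). Their median was 6298 bp, with a 95% order-statistic interval of 0 to 36535 bp, while the median of all genes was 5288 bp with quartiles of 221 and 23497 bp. When only sites of at least 1 kb were used, the median of the 10 genes was 61048 bp and that of all genes 33976 bp.

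The 10 sites at these genes were narrow and stood apart from other sites. Their widths ran from 200 to 534 bp with a median of 346 bp, beside a median of 455 bp over the 153878 sites on the assembled chromosomes. The widest site per gene had a median of 363 bp over the 5 genes with a site, and of 1015 bp (quartiles 368 and 4290 bp) over the 10534 protein-coding genes with a site at a start or in the body. The gap to the next site had a median of 12244 bp (2272 to 209892 bp), beside 543 bp for all sites and 849 bp for all sites up to 534 bp wide. In GC content they were near the others, with a median of 48.6% against 47.9%. Their median ratio of observed to expected CpG was higher, at 0.320 against 0.191 for all sites and 0.181 for all sites up to 534 bp wide.

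**Figure D3:**
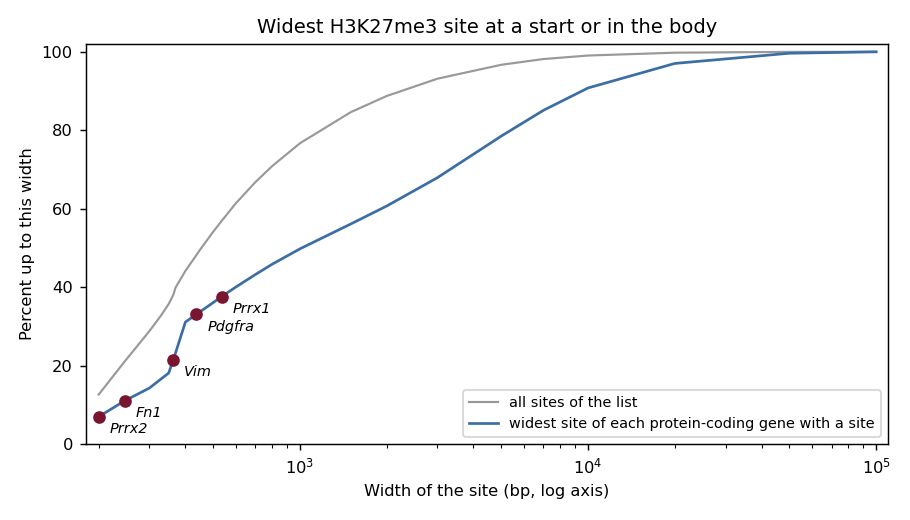
Cumulative share of H3K27me3 sites by width in bp (log axis), for all sites of the list (grey) and for the widest site at a start or in the body of each protein-coding gene that has a site (blue). The red points are the widest sites of Prrx2 (200 bp), Fn1 (246 bp), Vim (363 bp), Pdgfra (437 bp) and Prrx1 (534 bp), all below the median of 1015 bp.

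Summed over their length and in the mean per gene, the bodies of the 10 genes were less covered than those of all genes. The mean covered share of the body was 0.872% over the 10 genes and 11.2% over all genes. The median was not lower, at 0.182% over the 10 genes and 0 over all genes, most of which had no site in the body. The 10 bodies sum to 333 kb and held 9 sites, 2.70 per 100 kb, where the bodies of all protein-coding genes held 6.16 per 100 kb. The sites covered 0.855% of the 10 bodies and 6.81% of all bodies. The covered share was highest in Vim (4.08%), followed by Pdgfra (2.63%), Prrx1 (1.22%), Prrx2 (0.432%) and Fn1 (0.363%), and it was 0 in the other 5. Long genes are more likely to overlap a site, and the counts by length class were 1 of 4 genes under 10 kb (31.7% of all genes of this length), 2 of 4 genes of 10 to 50 kb (45.6%) and 2 of 2 genes of 50 kb or more (72.0%). All that was covered came from sites of at most 534 bp.

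Of the 9 sites in the bodies, 6 had their centre in an annotated exon (66.7%), beside 16.4% of the 66172 overlaps of a site with a protein-coding gene and 18.1% of those with sites up to 534 bp wide. The 6 were both sites of Prrx1, those of Fn1 and Vim, and 2 of the 4 of Pdgfra. Of these, the Pdgfra site of 329 bp lay in an exon of the retained-intron transcript Pdgfra-204 only. At least 95% of the site was exonic in 3 of the 9, against 6.09% over all genes and 8.31% over the narrow sites. The 9 sites come from 5 genes, and this count was made after their places had been seen. It carries no test.

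The CpG-rich promoters among the 10 genes had no site. Here CpG-rich means that, over 500 bp to each side of the outermost start, GC reached 50% and the observed to expected CpG ratio reached 0.6. Twist1 (ratio 0.871), Twist2 (0.801) and Fn1 (0.688) were CpG-rich, and none of these 3 had a site at a start. Of the other 7 genes, with ratios from 0.179 for S100a4 to 0.529 for Vim, 4 had a site at a start. Vim is among these 4 only through the start of Vim-203, and its site lay 6093 bp from the outermost start, where CpG was measured. Over all protein-coding genes, 25.5% of the CpG-rich and 36.3% of the other promoters had a site, so that the order of the shares was the same there.

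**Figure D4:**
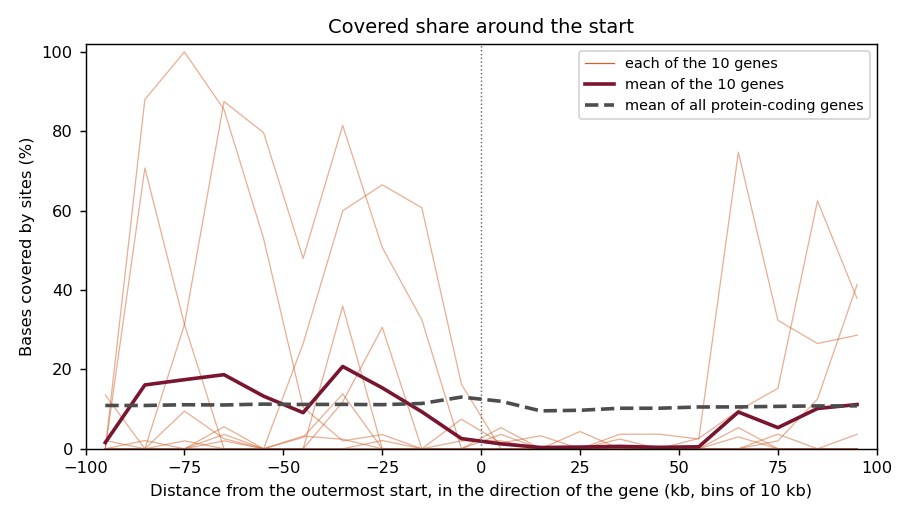
Share of bases covered by H3K27me3 sites in bins of 10 kb from 100 kb before to 100 kb after the outermost start, for each of the 10 genes (thin lines), their mean (red) and the mean of all protein-coding genes (dashed). From the start to 60 kb after it the mean of the 10 genes lies between 0.329 and 1.24%, while that of all genes lies between 9.55 and 11.98%.

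Covered stretches were sparse from 10 kb before to 60 kb after the start. In the 10 kb before the outermost start the mean covered share was 2.58% for the 10 genes and 13.03% for all genes, and 6 of the 10 had no covered base there. From the start to 60 kb after it the mean of the 10 genes stayed at 0.329 to 1.24% per bin, against 9.55 to 11.98%. Farther upstream the mean of the 10 genes varied between bins and lay on both sides of that of all genes. It was highest from 40 to 30 kb before the start, at 20.7% against 11.2%. There the median of the 10 genes was 7.1%, 3 of them had no covered base and the highest had 81.5%. From 100 to 90 kb before the start the mean was 1.56% against 10.9%. Over the 100 kb on either side of the body the median was 5.65% for the 10 genes and 5.36% for all genes, with a range from 0 (Vim) to 35.2% (Pdgfra). Which median was higher depended on the setting. That of the 10 genes was lower for flanks of 50 kb (2.73% against 4.09%) and of 200 kb (5.73% against 6.59%). It was also lower with sites closer than 1 kb joined (5.99% against 6.51%) or closer than 5 kb joined (7.19% against 10.95%). With only sites of at least 500 bp it was higher (4.50% against 3.965%), as with those of at least 1 kb (3.82% against 2.75%).

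Some of the neighbours had wide sites. A nearest neighbour could lie far from its gene, as did Kit at 376701 bp from Pdgfra and Mreg at 506242 bp from Fn1. Of the 20 nearest protein-coding neighbours that do not overlap the gene itself, 9 had a site at a start and 6 had a site of at least 1 kb there, beside 31.5% and 20.1% of all protein-coding genes, and beside 4 and 0 of the 10 genes themselves. The 6 were Gsx2 (22734 bp), Kit (11459 bp), Ferd3l (3542 bp), St8sia6 (2451 bp, downstream of Vim), Hdac9 (1780 bp, downstream of Twist1) and Cdx1 (1703 bp). At a start, Mreg (upstream of Fn1) had a site of 842 bp, Asb1 (upstream of Twist2) one of 787 bp and S100a3 (upstream of S100a4) one of 320 bp. Mroh9 (downstream of Prrx1), with 4 sites of up to 1149 bp, and Nectin1 (upstream of Thy1), with 1 site of 200 bp, had sites in the body but none at a start. No site was found in the bodies of Hdac4 (downstream of Twist2), Gorab (upstream of Prrx1), Asb6 and Ptges (on either side of Prrx2), Gm49380 (downstream of Thy1), Atic (downstream of Fn1), Trdmt1 (upstream of Vim) and S100a5 (downstream of S100a4). The neighbours were taken by position. Some, such as Ferd3l, Kit and S100a5, are relatives of the gene they flank, and others differ from it in function. No interval was computed for the 20 neighbours and no test of the difference was made.

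**Figure D5:**
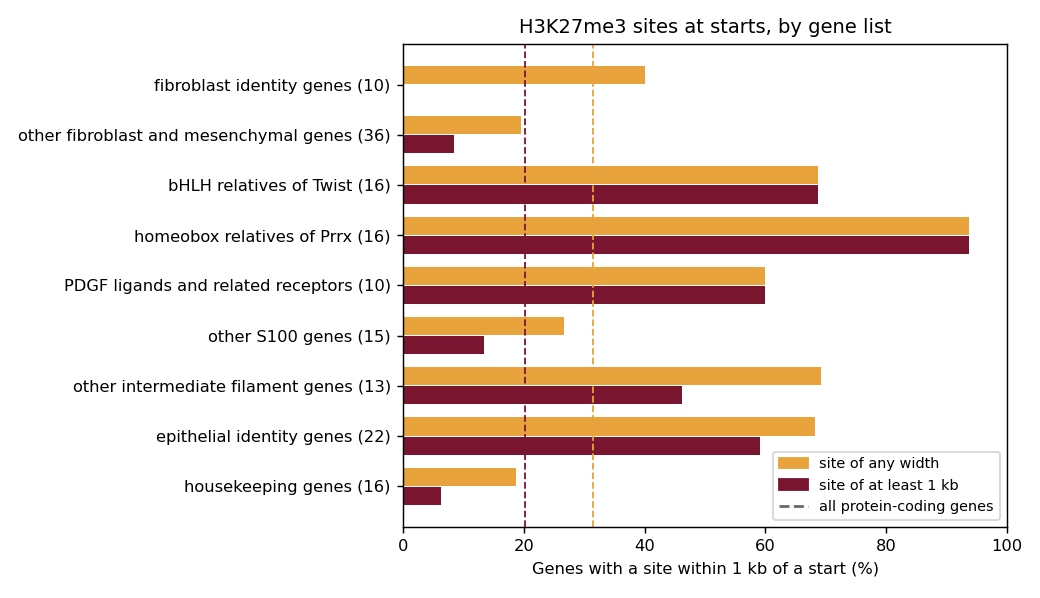
Percent of genes with an H3K27me3 site within 1 kb of a start, by gene list with the number of genes in brackets, for sites of any width (orange bars) and of at least 1 kb (red bars). The dashed lines are the shares of all protein-coding genes (31.5 and 20.1%), and the fibroblast identity genes stand at 40% and 0%.

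Relatives of the transcription factors carried wide sites. Of 16 bHLH genes related to Twist, 11 had a site of at least 1 kb at a start, the widest at Tcf15 (27865 bp), Ptf1a (18148 bp), Myod1 (14344 bp) and Hand2 (12911 bp), which direct somite, pancreas, muscle and heart development, while Scx of tendon and Myf5 of muscle had none. Of 17 listed homeobox genes related to Prrx, 16 were measured. Of these 16, 15 had a site of at least 1 kb at a start, with sites of 54442 bp at Uncx and 28867 bp at Alx4, and only Isx had none there. The median covered share of the body was 69.4% for the bHLH genes and 83.1% for the homeobox genes, while among the 4 transcription factors described here Prrx1 stood highest at 1.22%. These lists were chosen for their family and include regulators of other tissues.

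Of 10 genes of the platelet-derived growth factor ligands and of receptors related to Pdgfra and Pdgfrb, 6 had a site of at least 1 kb at a start. The widest were at Kit (11459 bp), Flt3 (6381 bp), the ligand gene Pdgfb (5742 bp) and Kdr (5422 bp), and there was none at the ligand gene Pdgfa or at Csf1r. Pdgfra and Pdgfrb had none of this width at a start or in the body. Kit is also the nearest downstream neighbour of Pdgfra, and Csf1r that of Pdgfrb.

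Other genes of fibroblasts and mesenchyme also had few wide sites, though no test of a likeness was made. Of 36 such genes, 7 had a site at a start (19.4%) and 3 had one of at least 1 kb (8.33%), all below the shares of all genes given above. The 3 were Tcf21 (4620 bp), Meox2 (3509 bp) and Osr2 (2445 bp), which encode transcription factors, and Tcf21 is also among the bHLH genes above. The collagen gene Col1a1 had a site of 389 bp at a start, and Col1a2 and Col3a1 had none. The body overlapped a site in 18 of the 36 and a site of at least 1 kb in the same 3 genes. The median distance to the nearest site was 18973 bp, against 6298 bp for the 10 genes, and the median covered share of the flanks was 0.852% against 5.65%.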

How the data were processed

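H3K27me3 ChIP-seq libraries of iMEF cells had been trimmed by the authors with Trim Galore, aligned with BWA to mm10 (GRCm38.p6), filtered with SAMtools and merged with Picard. The authors called broad peaks with MACS2 and joined them over all samples. Versions, thresholds and the joining rule are not given in the sources used here. The deposited values are positions only (chromosome, start, end), with no count or score, so the depth behind a site is unknown. Positions were taken as 0-based half-open intervals, since the smallest difference was 200 and 19442 sites had it, and are printed as counted from 1. Of 153983 sites, 105 lay outside the 21 assembled chromosomes and were not used for genes. Unassigned columns numbered 0.

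Genes, transcripts and exons were taken from GENCODE M21, and sequences from RefSeq GRCm38.p6. A gene had a site when at least 1 bp overlapped the window or the body. Overlaps were computed in Python 3.11.15 with NumPy 2.4.6 and checked on simulated sites, with 0 wrong answers. Intervals are 95% exact binomial (SciPy 1.17.1) or order-statistic intervals and cover the counting of genes only. Neighbouring sites are not independent.

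No groups were compared and no test was made, for lack of values per library. The 10 genes and the further gene lists were chosen with earlier results of these data known. All 10 genes and their nearest protein-coding neighbours are named, and from each further list at most 4 genes with the widest site at a start and at most 2 with none. For 1 list only some of these genes are named, and 1 sequence is not reported here. Alternatives were wider sites only, joined sites, other starts, windows, flanks and gene sets.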

Additional observations from a re-analysis of the deposited data

How the results depend on the processing

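With sites of at least 500 bp only, the number of the 10 genes with a site at a start was 1 in place of 4 and in the body 1 in place of 5, and with sites of at least 1 kb both counts were 0. The median distance to the nearest site was then 61048 bp in place of 6298 bp. These alternatives remove sites by construction. With all annotated genes in place of protein-coding ones, the share of genes with a site at a start was 24.1% in place of 31.5%. Windows of 500 bp, 2 kb and 5 kb around the starts gave 3, 4 and 5 genes with a site, beside 27.8, 37.2 and 49.2% of all genes. With protein-coding starts only or the outermost start only, the median distance was 9952 bp, beside 6472 and 7765 bp for all genes. The number of sites of a single gene moved in 11 of 40 gene and setting pairs, each time to a lower number. Its distance was counted as moved in 13 of 40, where it was larger in 12 and smaller in 1. The exception was Prrx2, whose sites merged over the start when sites closer than 5 kb were joined. Lesser changes of distance were not counted, such as that of Twist1 from 21714 to 26940 bp with sites of at least 500 bp.

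No paired analysis was possible because sites come without a value for any library, and no library was left out for the same reason. The depth behind the sites is unknown. A gene without a site cannot be told apart from a gene whose mark was too weak to be called. The list joins control and treated cells, and in which of them a site was found is not known.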

Other observations

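Other gene lists differed in their sites. Of 22 genes of epithelial identity, 15 had a site at a start and 13 had one of at least 1 kb, the widest at Grhl2 (14640 bp), the tight junction gene Cldn7 (14559 bp), the protease gene St14 (10087 bp) and Tjp3 (9815 bp), while Krt8 and Cldn4 had none there. Of 13 other intermediate filament genes, related to Vim, 9 had a site at a start and 6 one of at least 1 kb. The widest of these were at Nefh (21782 bp), Prph (16236 bp), Ina (6968 bp) and Nefl (6813 bp), which encode filament proteins of neurons, while Des of muscle and Lmna of the nuclear lamina had none. Of 15 other S100 genes, 4 had a site at a start, namely S100a9 (2933 bp), S100z (2896 bp), S100a8 (401 bp) and S100a3 (320 bp). S100a5 and S100a6, which lie close to S100a4, had none. Of 16 housekeeping genes, 3 had a site at a start, namely Actb (1350 bp), Sdha (359 bp) and Eef1a1 (330 bp), and Gapdh and Tbp had none. The shares of all protein-coding genes were 31.5% for any site and 20.1% for sites of at least 1 kb. Krt8 and Krt18 are in both the epithelial and the filament list.

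The widths of the sites were not spread evenly. Widths over 350 and up to 375 bp occurred 331 times per bp of width, against 213 in the band of 75 bp below and 174 in the band of 75 bp above, and 19426 sites on the assembled chromosomes had exactly 200 bp. Sites of these widths had a median gap of 2605 bp to the next site, beside 757 and 627 bp in the neighbouring bands. Of the 10 sites at the fibroblast identity genes, 3 were of this width (1 of Vim and 2 of Pdgfra), and 2, both of Prrx2, had exactly 200 bp. These bands were set after the widths had been seen, and the cause was not tested.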
